A study of Mus musculus with 32 samples.

Results

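The 7 genes of antigen presentation were followed through single cells of the adult mouse median eminence (ME), the thin strip of hypothalamus where neurosecretory axons meet blood vessels that lack the usual barrier. The class I genes are *H2-K1* and *H2-D1*, which encode the heavy chains, and *B2m*, the light chain that both pair with. The class II genes are *H2-Aa*, which encodes the alpha chain of I-A, *H2-Ab1*, its beta chain, *H2-Eb1*, the beta chain of I-E, and *Cd74*, the invariant chain that holds the new class II dimer and guides it to the endosome. They were taken by symbol, and all 7 were found among the 27998 genes of the count matrix. The class I rows held 23076 UMIs and the class II rows 15948.

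In the GRCm38 annotation (GENCODE vM21), *H2-K1* (ENSMUSG00000061232) lies at chr17:33996017-34000347 on the minus strand and *H2-D1* (ENSMUSG00000073411) at chr17:35262730-35267499 on the plus strand. *H2-Ab1* (ENSMUSG00000073421, chr17:34257689-34269419, plus strand), *H2-Aa* (ENSMUSG00000036594, chr17:34282744-34287823, minus strand) and *H2-Eb1* (ENSMUSG00000060586, chr17:34305867-34316674, plus strand) lie beside each other between them. *B2m* (ENSMUSG00000060802) is at chr2:122147686-122153083 and *Cd74* (ENSMUSG00000024610) at chr18:60803848-60812652, both on the plus strand. *B2m* overlaps *Patl2*, and *H2-Eb1* overlaps *Gm20513*, on the opposite strand, and the strand used for counting is not given in the sources used here.

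Class I molecules show peptides of the cell's own proteins to CD8 T cells and are made at some level by most cell types. Class II molecules show peptides of material taken up by the cell to CD4 T cells, and their making is largely kept to dendritic cells, B cells, monocytes and macrophages. In the brain, macrophages at the borders and vessels are known to carry class II, while microglia of the healthy tissue carry little.

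The tissue came from male C57B/L6 mice aged 40 to 47 days. One group of 5 mice was fasted for 16 h, and the other group of 5 mice was given chow for 1 h after the same fast. The tissue was dissociated with papain and sorted for live nucleated cells. The mice of each group form 1 pool, and each pool was split over 2 libraries of droplet-based RNA sequencing. The deposited matrix joins all libraries, and each barcode carries a suffix, 1, 2, 3 or 4, which no label ties to a library or a condition. Fasted and refed cells were therefore not compared here, and all cells form 1 sample without replicates.

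The 5982 cells held 29288898 UMIs (unique molecular identifiers, each standing for 1 captured transcript), and barcode numbers 1 to 4 held between 1359 and 1642 cells and between 6508038 and 7806887 UMIs. Of 5961 distinct barcode sequences, 21 occurred under more than 1 number, among them those of 3 macrophage-like and 5 microglia-like cells. Cells were clustered without the members and other antigen presentation genes, and clusters were named from marker lists, so that "macrophage-like" means cells that resemble the type. The naming gave 13 types and left 3 clusters of 215, 41 and 28 cells unnamed. The 121 macrophage-like cells (41, 38, 25 and 17 in barcode numbers 1 to 4) had UMIs of all 9 macrophage markers, such as *Mrc1*, *Pf4* and *Lyve1*, summing to 5882 CPM (counts per 1000000 UMIs) against 142 CPM in microglia-like cells. The 404 microglia-like cells (123, 140, 61 and 80) had UMIs of all 8 microglia markers, such as *P2ry12* and *Tmem119*, at 18914 CPM against 3031 CPM in macrophage-like cells. The median depth of the macrophage-like cells was 3112 UMIs and that of the microglia-like cells 3086.5 UMIs. Levels are CPM summed over the cells of a type, and the 95% intervals in parentheses (exact Poisson for levels, exact Clopper-Pearson for shares, exact conditional for ratios) cover counting error only.

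The promoters are shown because class I and class II genes are known to share an upstream module, in which an X box, part of which resembles a cyclic AMP response element, lies shortly before a Y box. RefSeq held a start site for 5 of the 7 members (GRCm38.p6), namely *B2m*, *H2-K1*, *H2-D1*, *H2-Aa* and *H2-Eb1*. The 250 bases before the start of 4 of them are printed 5′ to 3′ on the strand of the gene, with matches to TGACG (the core of that part of the X box) and ATTGG (the core of the Y box) on either strand in capitals. The windows are chr2:122147437-122147686 on the plus strand for *B2m*, chr17:34000348-34000597 on the minus strand for *H2-K1*, chr17:34287824-34288073 on the minus strand for *H2-Aa* and chr17:34305617-34305866 on the plus strand for *H2-Eb1*.
B2m: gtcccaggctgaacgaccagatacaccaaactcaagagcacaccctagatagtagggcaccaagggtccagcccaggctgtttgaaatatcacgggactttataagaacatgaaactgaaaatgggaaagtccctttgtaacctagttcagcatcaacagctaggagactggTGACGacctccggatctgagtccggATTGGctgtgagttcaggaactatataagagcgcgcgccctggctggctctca
H2-K1: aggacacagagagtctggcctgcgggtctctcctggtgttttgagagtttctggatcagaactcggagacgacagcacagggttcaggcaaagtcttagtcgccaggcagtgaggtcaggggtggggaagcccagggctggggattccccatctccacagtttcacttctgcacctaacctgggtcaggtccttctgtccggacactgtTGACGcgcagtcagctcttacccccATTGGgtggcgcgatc
H2-Aa: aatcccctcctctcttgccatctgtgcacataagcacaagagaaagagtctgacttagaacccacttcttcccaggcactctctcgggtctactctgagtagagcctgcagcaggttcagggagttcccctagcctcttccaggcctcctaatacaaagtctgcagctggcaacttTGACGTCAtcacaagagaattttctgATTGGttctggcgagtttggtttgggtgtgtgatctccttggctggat
H2-Eb1: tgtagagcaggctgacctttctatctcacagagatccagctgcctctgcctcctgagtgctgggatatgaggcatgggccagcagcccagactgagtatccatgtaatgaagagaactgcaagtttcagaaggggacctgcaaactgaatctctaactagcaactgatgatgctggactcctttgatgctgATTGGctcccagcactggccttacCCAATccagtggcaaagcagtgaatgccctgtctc

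In *B2m*, *H2-K1* and *H2-D1*, TGACG was followed by ATTGG on the strand of the gene with 20 bases between them, and in *H2-Aa* with 21 bases between them. The *H2-D1* window, which the GENCODE annotation places inside its first exon, is not printed. The TGACG of *B2m* began 78 bases before the start, that of *H2-K1* 41 bases, that of *H2-D1* 101 bases and that of *H2-Aa* 74 bases before it. Of 32851 RefSeq promoter windows of the same length, 258 (0.785%) held this order on either strand with at most 30 bases between. The capitals of *H2-Aa* run on because TGACG also matched on the opposite strand there, overlapping the first match. *H2-Eb1* held ATTGG on both strands and no TGACG in this window. TGACG alone was found in 17.8% of all windows and ATTGG alone in 33.8%. The motifs were chosen after these letters were seen, and a match is a match of letters, not a measured site.

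Class I genes were highest in macrophage-like and microglia-like cells and stepped down through endothelial-like cells and vascular and leptomeningeal (VLMC)-like cells to the neural types. The class I sum was 7102 CPM (6844 to 7369) in macrophage-like, 6205 (6073 to 6339) in microglia-like, 3558 (3310 to 3819) in endothelial-like and 2076 (1978 to 2177) in VLMC-like cells. The 9 other types lay between 154 CPM in mature oligodendrocyte (MOL)-like and 587 CPM in mural-like cells, and neuron-like cells had 168 CPM. The first 4 types kept their order without overlap of their intervals, and the values in the 4 barcode numbers overlapped only between macrophage-like and microglia-like cells. Mural-like, oligodendrocyte precursor (OPC)-like, tanycyte-like and astrocyte-like cells followed each other between 587 and 456 CPM with overlapping intervals between neighbours.

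*H2-K1* in barcode numbers 1 to 4 was at 953, 746, 1025 and 647 CPM in macrophage-like cells and at 516, 479, 453 and 274 CPM in microglia-like cells. Every macrophage-like value was above every microglia-like value. Endothelial-like cells had *H2-K1* at 419 CPM (337 to 515), within the interval of microglia-like cells at 449 CPM (414 to 486).

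*H2-D1* was at 2689, 2650, 2810 and 1745 CPM in macrophage-like cells and at 1807, 1874, 1343 and 971 CPM in microglia-like cells. The macrophage-like value of barcode number 4, which held 17 of these cells, was below the microglia-like values of numbers 1 and 2, while within each number the macrophage-like level was higher. In endothelial-like cells *H2-D1* was at 1409 CPM (1255 to 1577) and 98.8% of the 84 cells had at least 1 UMI of it.

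*B2m* was at 3843, 3614, 3879 and 2985 CPM in macrophage-like cells and at 4236, 4264, 4374 and 3593 CPM in microglia-like cells. It was the one class I member that was lower in macrophage-like cells, in each of the 4 numbers. The size of that difference was small, and its direction turned when each cell was thinned to 1000 UMIs, where the log2 difference was 0.030, and it came to 0.0013 when cells with a UMI of a dendritic, monocyte, B, T or neutrophil marker were left out.

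The macrophage-like over microglia-like log2 difference of the class I sum was 0.19 (0.13 to 0.26), and it was 0.19, 0.08, 0.32 and 0.15 in barcode numbers 1 to 4. For single genes it was 0.95 (0.75 to 1.14) for *H2-K1*, 0.68 (0.57 to 0.79) for *H2-D1* and -0.18 (-0.26 to -0.10) for *B2m*. Across the 4506 genes with at least 50 UMIs in both types together, the median log2 difference was -0.16, so *B2m* lay close to the median gene. No test was possible with 1 sample, and the class I difference between these types was 0.41 on the log2 scale in thinned cells.

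**Figure D1:**
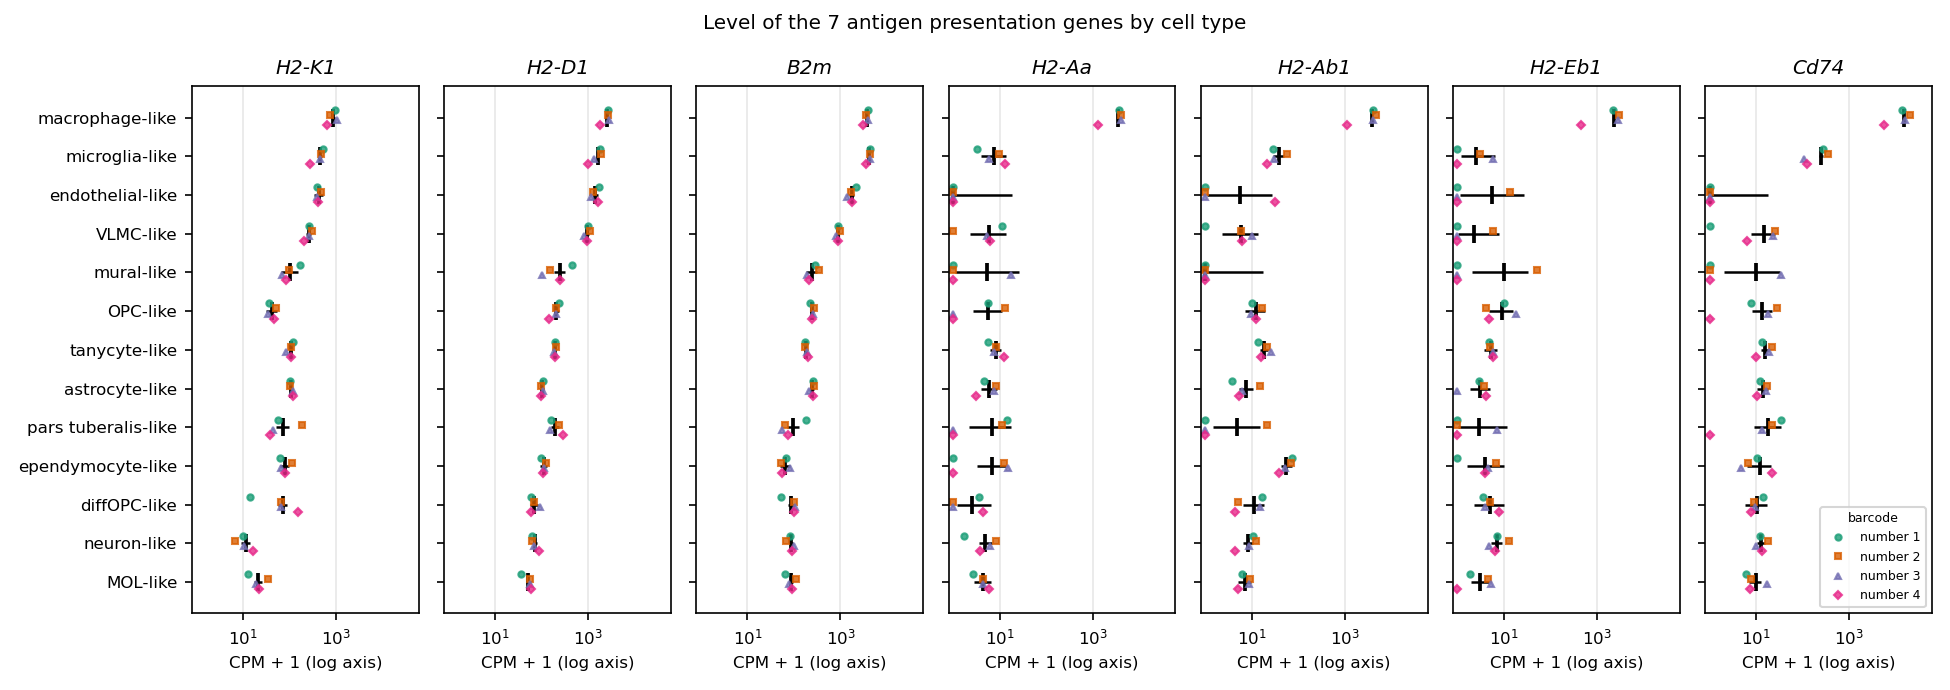
Level of each member (CPM + 1, log axis) in the 13 cell types, with the black tick at the summed level, the black line its 95% counting interval and coloured points the 4 barcode numbers (a point at 1 is a CPM of 0). The class I genes are highest in macrophage-like and microglia-like cells, followed by endothelial-like and VLMC-like cells, and lower in all other types. The class II genes stand at 2331 to 14993 CPM in macrophage-like cells and *Cd74* at 244 CPM in microglia-like cells.

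The 3 class I genes did not keep 1 proportion to each other across types. *H2-K1* and *H2-D1* encode close relatives, so the 76-base stretches in the last 500 bases of the longest coding transcript of each member were searched in all other transcripts of the annotation, since the chemistry reads the 3′ end. None of the 425 stretches of any member occurred in a transcript of another gene. The ratio of *H2-D1* to *H2-K1* UMIs was 3.58 (3.27 to 3.92) in microglia-like, 2.97 (2.63 to 3.37) in macrophage-like, 3.37 (2.65 to 4.31) in endothelial-like and 3.67 (3.15 to 4.30) in VLMC-like cells. It was highest in neuron-like cells at 6.64 (5.16 to 8.67), overlapping OPC-like cells at 5.02 (3.70 to 6.92), and lowest in astrocyte-like cells at 0.917 (0.797 to 1.06), overlapping diffOPC-like cells at 0.978 (0.719 to 1.33). In the latter 1 cell of barcode number 4 held 40 of the 89 *H2-K1* UMIs, and without it, an alternative added after seeing the data, their ratio was 1.76 (1.22 to 2.55), above that of astrocyte-like cells. In astrocyte-like cells it stayed between 0.811 and 1.01 in the 4 barcode numbers, below the lowest number of microglia-like cells at 2.97. Tanycyte-like cells lay between them at 1.82 (1.66 to 2.01).

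The ratio of *B2m* to *H2-K1* was 9.23 (8.49 to 10.1) in microglia-like and 4.23 (3.76 to 4.77) in macrophage-like cells, with ranges of 8.21 to 13.1 and 3.78 to 4.84 over the barcode numbers that did not overlap. Neuron-like cells were at 8.23 (6.41 to 10.7), within counting error of microglia-like cells. Endothelial-like cells were at 4.13 (3.28 to 5.26), near the macrophage-like value. Differentiating OPC (diffOPC)-like cells were an unsteady case, with *H2-K1* at 13.2, 64.5, 65.9 and 150 CPM in barcode numbers 1 to 4.

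**Figure D2:**
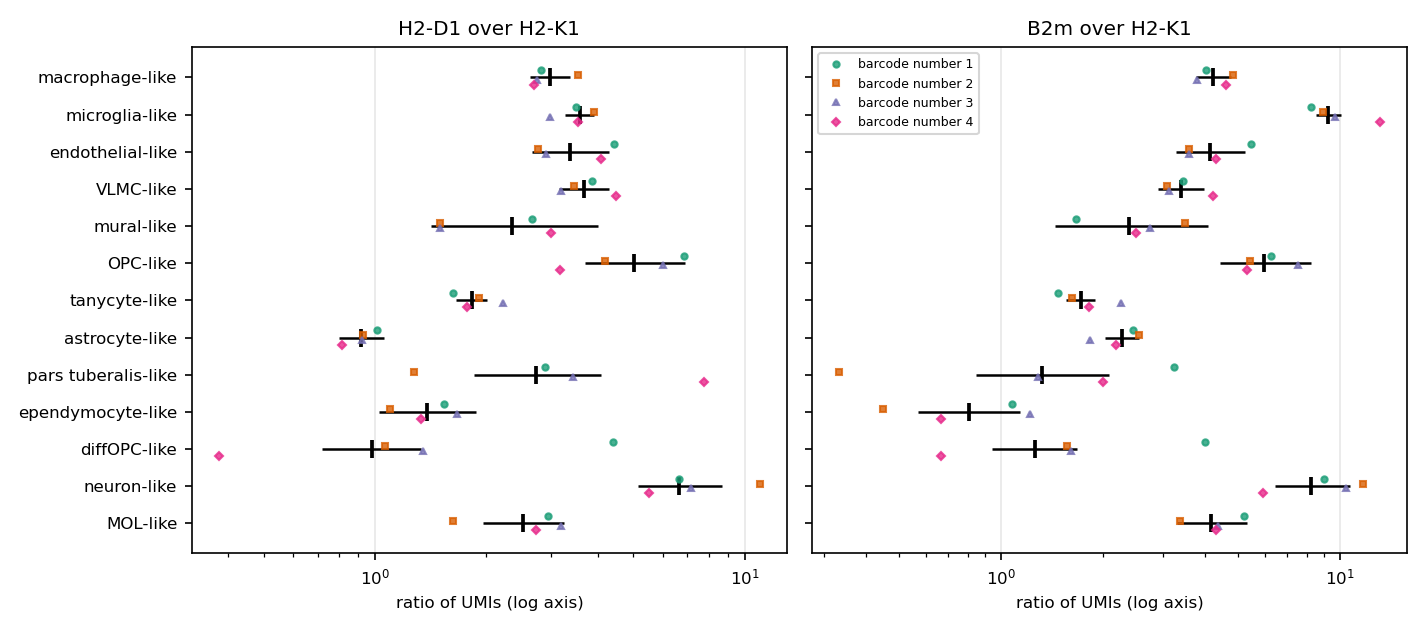
Ratio of *H2-D1* to *H2-K1* UMIs (left) and of *B2m* to *H2-K1* UMIs (right) in each cell type on a log axis, with the black tick at the value over all cells, the line its 95% counting interval and the points the 4 barcode numbers. Astrocyte-like cells have the lowest *H2-D1* to *H2-K1* ratio at 0.917 and microglia-like cells the highest *B2m* to *H2-K1* ratio at 9.23.

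Within microglia-like cells the class I share of the transcripts was larger in cells with more UMIs. It was 4606 CPM (4365 to 4858) in the 135 cells with the fewest UMIs (median 2210 UMIs), 5257 (5040 to 5481) in the next 135 cells (median 3093) and 7567 (7355 to 7783) in the 134 cells with the most (median 4245). All 3 class I genes took part, with *B2m* at 3213 and 4943 CPM and *H2-K1* at 311 and 594 CPM in the cells with the fewest and the most UMIs. The summed microglia markers went the other way, from 24815 to 15571 CPM, and the 8 interferon response genes went from 277 to 1118 CPM. In the cells with the most UMIs, the class I sum was 7508, 8581, 7235 and 5374 CPM in barcode numbers 1 to 4, above the cells with the fewest UMIs of the same number in each. Macrophage-like cells, split the same way, had class I sums of 6602, 7494 and 7078 CPM, without such an order, while their class II sums were 10442, 21670 and 33256 CPM. Microglia-like cells also fell into 2 clusters, and the one of 48 cells with *Ccl4*, a chemokine gene, at 1096 CPM had a class I sum of 4448 CPM (4143 to 4769) against 6471 CPM (6326 to 6618) in the other 356 cells.

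Class II genes were concentrated in macrophage-like cells. These 121 cells, 2.02% of all cells with 1.37% of all UMIs, held 61.9% (61.2 to 62.7) of the class II UMIs, and the unnamed cluster of 28 cells held another 29.6%. Of the class II UMIs of the macrophage-like cells, 81.4% came from 30 cells. They form 2 sub-clusters without a UMI of *Cd163* or *Lyve1*, described further on. With these 30 cells left out of the total too, the 91 other macrophage-like cells held 23.2% of the class II UMIs. Microglia-like cells held 2.45% of all class II UMIs. For class I the shares were 12.3% in macrophage-like and 36.4% (35.8 to 37.1) in microglia-like cells.

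*Cd74* in barcode numbers 1 to 4 was at 13786, 20326, 15451 and 5719 CPM in macrophage-like cells and at 267, 345, 103 and 125 CPM in microglia-like cells. Number 4 was the lowest among macrophage-like cells and the groups did not overlap. The log2 difference was 5.94 (5.78 to 6.11).

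*H2-Aa* was at 3642, 4109, 4122 and 1331 CPM in macrophage-like cells and at 2.3, 8.5, 4.9 and 12.1 CPM in microglia-like cells, from 1427 and 9 UMIs in all. *H2-Ab1* was at 3970, 4771, 3978 and 1115 CPM in macrophage-like cells and at 27.7, 57.4, 29.5 and 20.1 CPM in microglia-like cells. *H2-Eb1* was at 2197, 3002, 2799 and 450 CPM in macrophage-like cells, while microglia-like cells had 2 UMIs of it in all. For each chain barcode number 4 was again the lowest among macrophage-like cells, and no microglia-like value came near. The log2 differences were 9.07 (8.14 to 10.2) for *H2-Aa*, 6.69 (6.29 to 7.13) for *H2-Ab1* and 10.6 (8.77 to 13.7) for *H2-Eb1*, the last resting on those 2 UMIs.

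The class II sum was 24706 CPM (24221 to 25198) in macrophage-like and 288 CPM (261 to 319) in microglia-like cells, a ratio of 85.6 and a log2 difference of 6.42 (6.27 to 6.57), which was 4.53 (4.37 to 4.69) without those 30 cells. In barcode numbers 1 to 4 the ratio was 79.4, 78.0, 185 and 54.8. All 4 class II genes and none of the 3 class I genes passed 1 log2 unit (on CPM + 10) towards macrophage-like cells, against 3.77% of the 4506 genes. At 2 log2 units the 4 class II members stood against 1.58% of genes. The median on that scale was 7.01 over the class II members, 0.68 over the class I members and -0.16 over all genes. Markers of other leukocytes moved with this result, since the 4 monocyte markers summed to 290 CPM in macrophage-like (0 to 377 over barcode numbers, *Plac8* at 0) and 7.4 CPM in microglia-like cells (4.6 to 10.6, *Ly6c2* at 0). The 8 dendritic markers summed to 37.5 CPM (0 to 74.5, *Xcr1* and *Ccr7* at 0) and 39.1 CPM (at most 44.7, *Xcr1* and *Cd209a* at 0), the 4 B cell markers, only *Cd79b* of which was found, to 52.5 and 56.1 CPM, and the T or NK markers to 2.5 and 0 CPM, while neutrophil markers were at 0 in both. With cells that had a UMI of any such marker left out, 82 macrophage-like and 295 microglia-like cells were left and the log2 difference of the class II sum was 5.67 (5.48 to 5.86). In the 30 cells named above, *Ccr2* alone gave 868 of the 916 CPM of the monocyte markers.

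Microglia-like cells carried *Cd74* above every other named type except macrophage-like cells, but not in the proportion to the chains seen in macrophage-like cells as a whole. *Cd74* was at 244 CPM (218 to 271) in microglia-like cells and between 0 and 17.4 CPM in the 11 other types. All 3 chains in microglia-like cells lay within the range of the 11 other types. *H2-Ab1* was at 36.9 CPM (27.4 to 48.6), below ependymocyte-like cells at 54.1 CPM and above tanycyte-like cells, the next type, at 17.4 CPM. *H2-Aa* at 6.6 CPM (3.0 to 12.6) and *H2-Eb1* at 1.5 CPM (0.18 to 5.3) compare with 0 to 7.3 and 1.2 to 8.9 CPM. The ratio of *Cd74* to *H2-Aa* UMIs was 36.7 (19.1 to 80.9) in microglia-like cells, 4.2 (3.96 to 4.45) in macrophage-like cells, 2.02 (1.40 to 2.96) in tanycyte-like cells and 3 (1.90 to 4.87) in neuron-like cells. The microglia-like value rests on 9 *H2-Aa* UMIs. Against *H2-Ab1* the contrast was smaller, at 6.6 (4.89 to 9.07) in microglia-like and 3.93 (3.72 to 4.16) in macrophage-like cells. In barcode numbers 1 to 4 that ratio was 9.67, 6, 3.5 and 6.2 in microglia-like and 3.47, 4.26, 3.88 and 5.13 in macrophage-like cells. Of the macrophage-like *Cd74* UMIs, 90.4% came from cells with 100 or more. At 1 to 9 *Cd74* UMIs per cell, *Cd74* lay further above the chains in macrophage-like cells too. *Cd74*, *H2-Aa* and *H2-Ab1* were then at 1087, 53.8 and 86.1 CPM in macrophage-like and 497, 9.3 and 53.4 CPM in microglia-like cells.

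At least 1 *Cd74* UMI was found in 58.7% (49.4 to 67.6) of macrophage-like and 28% (23.6 to 32.6) of microglia-like cells. In types not known to make it the share was 0 of 84 endothelial-like cells (median depth 2245.5 UMIs), for which the interval reaches 4.30%, 3.42% of astrocyte-like cells (2664 UMIs) and 14% of neuron-like cells (13440 UMIs). Thinned to 1000 UMIs per cell, with no cell left out, the shares were 47.9% in macrophage-like, 12.1% in microglia-like, 1.64% in astrocyte-like and 0.988% in neuron-like cells. Of the microglia-like cells, 291 had no *Cd74* UMI, 64 had 1, 20 had 2 and 29 had more, up to 34.

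Class I was higher in microglia-like cells with *Cd74*, though hardly so in barcode number 4. The class I sum was 5138 CPM (4992 to 5289) in the 291 cells without *Cd74*, 8051 CPM (7785 to 8324) in the 108 cells with 1 to 9 UMIs and 13474 CPM (12018 to 15057) in the 5 cells with 10 or more, all of them from barcode numbers 1 and 2. In barcode numbers 1 to 4 it was 5097, 5067, 5761 and 4766 CPM in the cells without *Cd74* and 8940, 8794, 7530 and 5003 CPM in those with 1 to 9 UMIs. Median depth went with it, at 2868, 3503 and 5096 UMIs, and its part in the result was not tested. In macrophage-like cells the same 3 classes of 50, 29 and 42 cells had 6623, 7360 and 7390 CPM, at median depths of 2612, 2801 and 3493.5 UMIs.

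Within macrophage-like cells class II was present in some cells at a high level and close to absent in others. *Cd74* ranged from 0 to 346 UMIs per cell with a median of 2, and *H2-Aa*, *H2-Ab1* and *H2-Eb1* all had a median of 0. The 13 cells with the most class II UMIs held 58.5% of them, whereas the 13 highest for class I held 23.2% of the class I UMIs. With 10 *Cd74* UMIs as a dividing line, 42 cells lay at or above it and 79 below, and 16 cells lay between 5 and 19 UMIs. The share at or above the line was 36.6%, 42.1%, 28% and 23.5% in barcode numbers 1 to 4.

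The 4 class II genes went together cell by cell. All 27 macrophage-like cells with 100 or more *Cd74* UMIs had UMIs of all 3 chains, and 46 of the 50 cells with no *Cd74* UMI had no chain UMI either. Over the 121 cells the Pearson correlation of log2(UMIs + 1) between *Cd74* and the summed chains was 0.94, and it was 0.39 over the 404 microglia-like cells, as a description of cells that differ in depth. Of the 113 microglia-like cells with *Cd74*, 85 had no chain UMI, against 23 of 71 macrophage-like cells. These 2 sets differ in their *Cd74* counts. At 1 to 9 *Cd74* UMIs the shares were alike, with no chain UMI in 84 of 108 microglia-like and 22 of 29 macrophage-like cells.

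**Figure D3:**
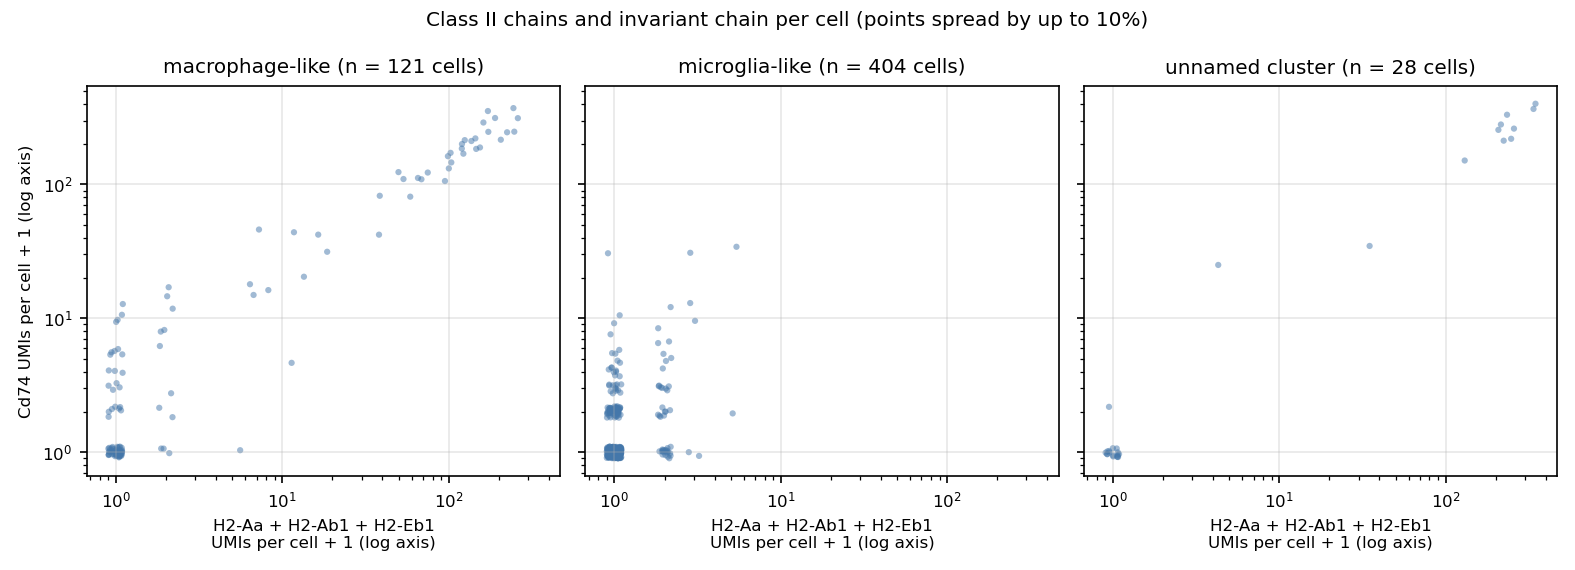
Each point is 1 cell, with summed *H2-Aa*, *H2-Ab1* and *H2-Eb1* UMIs + 1 on the horizontal and *Cd74* UMIs + 1 on the vertical log axis, and small random shifts to separate points. Macrophage-like cells spread from 0 to 346 *Cd74* UMIs, microglia-like cells reach 34 *Cd74* UMIs with few chain UMIs, and the 28 cells of the unnamed cluster fall into 11 high cells and 17 near 0.

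The cells at or above 10 *Cd74* UMIs had lower medians for several macrophage markers, and they mark a range of values, not a cell type. The median UMI count of *Pf4*, a chemokine gene of tissue macrophages, was 1 in these 42 cells and 7 in the other 79, and that of *Mrc1*, a mannose receptor, was 1 and 3. *Ms4a7* had a median of 4 in both, and *Ccr2*, the chemokine receptor of blood-derived monocytes, had a median of 0 in both with UMIs in 14 of 42 and 3 of 79 cells. *H2-DMa* and *H2-DMb1*, which encode the exchange factor that swaps *Cd74* fragments for peptide, had medians of 2 and 2.5 UMIs against 0 and 0. *Ciita*, the master regulator of class II transcription, had 3 UMIs in the 42 cells and 0 in the 79, too few for a ratio. The class I genes differed less across the line. *H2-D1* was higher above it, at 2886 CPM (2629 to 3161) against 2363 CPM (2172 to 2566), with *B2m* at 3645 CPM (3356 to 3952) and 3676 CPM (3437 to 3928), and *H2-K1* at 858 and 870 CPM, in the cells above and below the line.

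Clustering the 121 cells alone, again without the members and other antigen presentation genes, gave 6 sub-clusters. Sub-cluster 1 (17 cells, led by genes such as *S100a4*, *Ly6c2* and *Ccr2*) and sub-cluster 2 (13 cells, led by *Cxcl9*, *Ccl5* and *Il1b*) had class II sums of 65612 and 63470 CPM. They had no UMI of *Cd163* or *Lyve1*, and 5 and 4 of the 9 macrophage markers were detected, so these sub-clusters are left without a name of their own. Sub-cluster 1 had the monocyte list at 1468 CPM, of which *Ccr2* alone gave 1380 CPM, and in sub-cluster 2 *Ccr2* gave all of its 249 CPM. *Ccr2* was not particular to these cells. In the unnamed cluster of 28 it was found in all 9 cells with 100 or more *Cd74* UMIs and in 8 of the 16 without *Cd74*. Barcode numbers 1 to 4 held 6, 9, 2 and 0 cells of sub-cluster 1 and 4, 1, 5 and 3 cells of sub-cluster 2. Together these 30 cells held 81.4% of the class II UMIs of the macrophage-like cells, and 24 of them had 10 or more *Cd74* UMIs. Lack of *Cd163* or *Lyve1* in a single cell did not set these sub-clusters apart. Of the 79 macrophage-like cells under 10 *Cd74* UMIs, 35 had a UMI of *Cd163* and 16 one of *Lyve1*.

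Sub-cluster 3 (25 cells, led by genes of dividing cells such as *Mki67* and *Ube2c*) had a class II sum of 160 CPM (79.9 to 286), with *H2-Aa* and *H2-Ab1* at 0 UMIs and *Mrc1* at 1383 CPM. Its cells came from all 4 barcode numbers, with 4, 5, 8 and 8 cells. Sub-clusters 4, 5 and 6 had all 9 macrophage markers and class II sums of 6970, 9506 and 11452 CPM. In the 91 cells of sub-clusters 3 to 6 the class II sum was 6662 CPM (6361 to 6974), with 18 cells at 10 or more *Cd74* UMIs, and its log2 difference to microglia-like cells was 4.53 (4.37 to 4.69). The class I sum of the 6 sub-clusters ranged only from 5356 to 8833 CPM.

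**Figure D4:**
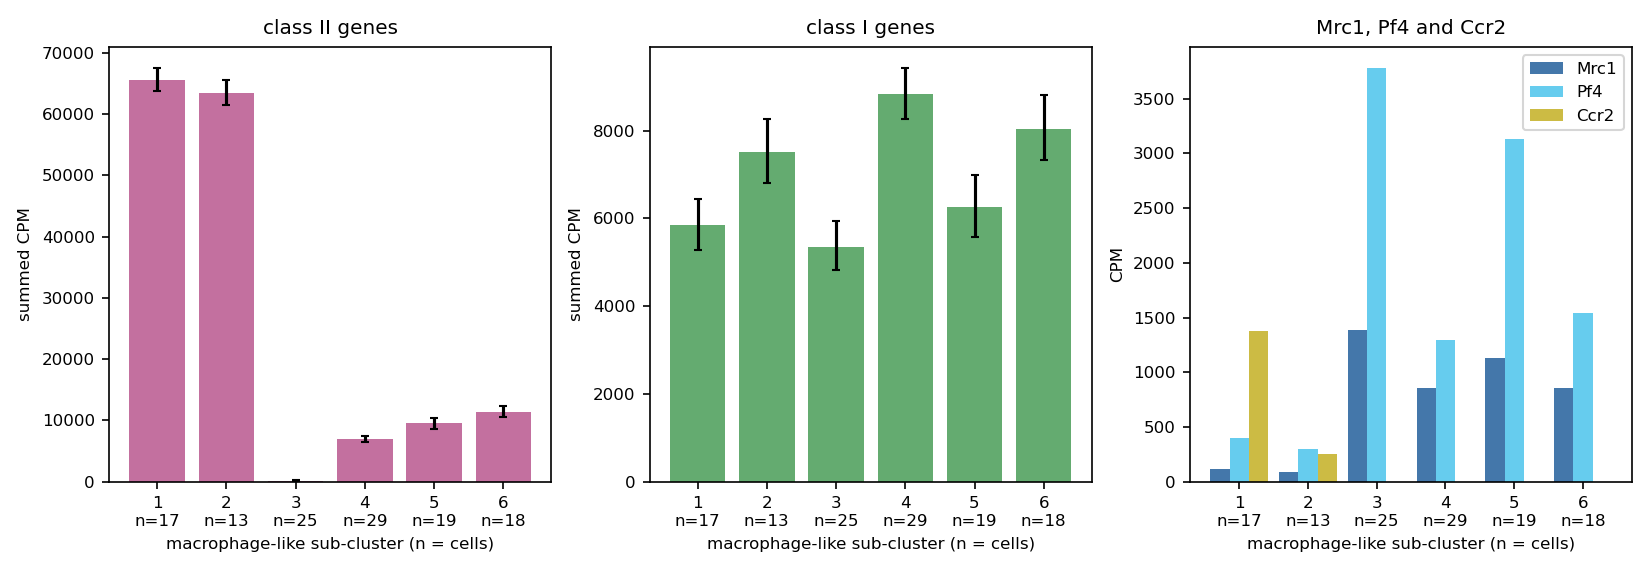
Summed CPM of the class II genes (left) and class I genes (middle) in the 6 sub-clusters of macrophage-like cells, with 95% counting intervals, and CPM of *Mrc1*, *Pf4* and *Ccr2* (right). Sub-clusters 1 and 2 have class II sums of 65612 and 63470 CPM with *Mrc1* at 117 and 88.8 CPM, sub-cluster 3 has 160 CPM, and class I stays between 5356 and 8833 CPM.

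The unnamed cluster of 28 cells had a class II sum of 44826.5 CPM, above that of the macrophage-like cells as a whole and below those of sub-clusters 1 and 2, with *H2-Aa* at 7098 CPM, *H2-Ab1* at 8474 CPM, *H2-Eb1* at 5115 CPM and *Cd74* at 24140 CPM. It was a mixture. In 11 cells *Cd74* ranged from 25 to 385 UMIs with a median of 240, all 11 had chain UMIs and a UMI of the dendritic list (such as *Cd209a* in 6 and *Xcr1* in 3 cells), and none had a UMI of the T or NK list. In the other 17 cells *Cd74* was 0 or 1, none had a chain UMI, 14 had a UMI of the T or NK list and 7 one of the dendritic list. None of the 17 had a UMI of *Cd209a*, *Xcr1*, *Ccr7* or *Flt3* from the dendritic list. Their UMIs of that list therefore came from *Clec9a*, *Zbtb46*, *Itgax* or *Klrd1*, which were not counted apart. Median depth was 5049 UMIs in the 11 cells and 2524 in the 17. Both parts carried class I, at 6820 CPM (6159 to 7533) in the 11 cells and 9432 CPM (8586 to 10338) in the 17 cells. The ratio of *Cd74* to *H2-Aa* was 3.40 (3.13 to 3.69), below that of macrophage-like cells.

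Among the types outside the leukocytes, *H2-Ab1* in ependymocyte-like cells stood apart from the other chains. It was at 72.4, 67.8, 50.6 and 38.4 CPM in barcode numbers 1 to 4, above every value of the 10 other non-leukocyte types, which reached 31.2 CPM. Of 202 ependymocyte-like cells, 37 had 1 UMI, 5 had 2 and 2 had more. *H2-Aa* was at 6.0 CPM and *Cd74* at 11 CPM in these cells, near the other types, so that the ratio of *H2-Ab1* to *H2-Aa* was 9 (3.88 to 25.6) against 1.07 (0.994 to 1.15) in macrophage-like cells. Thinned to 1000 UMIs, 4.95% of ependymocyte-like and 1.95% of tanycyte-like cells had a UMI of it.

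The other genes of the pathway were described by lists, beside the median of -0.16 over all genes. Of the 4 class I relatives with at least 50 UMIs in the 2 types (8 in the list), none differed by 1 log2 unit, with a median of 0.60, where 3.77% of all genes were higher and 7.97% lower by as much. *H2-T23*, which encodes the Qa-1 molecule read by NK cell receptors, was at 123 CPM in macrophage-like, 107 in endothelial-like and 74.5 CPM in microglia-like cells. *H2-M3*, which shows formylated peptides, was at 85.0 and 56.1 CPM in macrophage-like and microglia-like cells, and *H2-Q7* was at 42.5 and 14.8 CPM from 17 and 20 UMIs. *H2-Q4* was highest in endothelial-like cells at 79.1 CPM.

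Of the 12 genes of peptide supply and class I loading that were compared (13 in the list), none differed by 1 log2 unit either, with a median of 0.03, so that these counts lie near the shares of all genes. *Psmb8* and *Psmb9*, subunits of the immunoproteasome, were at 400 and 165 CPM in macrophage-like and 311 and 108 CPM in microglia-like cells. *Tap1*, a subunit of the peptide transporter into the endoplasmic reticulum, was at 75 and 37.6 CPM. *Calr*, a chaperone of class I folding, was at 228 CPM in macrophage-like and 413 CPM in microglia-like cells and was lower in all 4 barcode numbers.

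Genes of class II loading and cleavage showed no common direction between the 2 types. Of 6 genes compared (9 in the list), none was higher by 1 log2 unit in macrophage-like cells, and 3 were lower (*H2-Oa*, *Ctss* and *Lgmn*), where 7.97% of all genes were, with a list median of -0.68. *Ctss*, the protease that trims the invariant chain, was at 3311 CPM in macrophage-like and 10058 CPM in microglia-like cells, a log2 difference of -1.60 that held in all 4 numbers (-1.97 to -1.49). *Lgmn*, another endosomal protease, was at 2293 and 5530 CPM. *H2-Oa*, a subunit of the inhibitor of peptide exchange, was at 10.0 CPM in macrophage-like (4 UMIs) and 89.3 CPM in microglia-like cells (121 UMIs). *H2-DMa* was at 438 and 402 CPM and *H2-DMb1* at 403 and 198 CPM, with log2 differences of 0.12 (-0.74 to 0.77 over the numbers) and 0.99 (0.38 to 1.31). *Ifi30*, a thiol reductase of the endosome, was at 145 and 156 CPM.

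Among the regulators, *Irf8*, a transcription factor of the myeloid lineage, was at 408 CPM in macrophage-like and 722 CPM in microglia-like cells. *Ciita* had 3 UMIs in macrophage-like and 0 in microglia-like cells. Of 2 costimulation genes compared (5 in the list) neither passed 1 log2 unit (median -0.17), near the 3.77% and 7.97% of all genes, with *Cd86* at 180 and 229 CPM. The level of *Cd40* peaked in VLMC-like cells, at 51.7 CPM.

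The interferon response list was the exception, with 7 of 7 genes compared (8 in the list) higher in macrophage-like cells by at least 1 log2 unit and 4 by at least 2, where 3.77% and 1.58% of all genes were, and a median of 2.26. *Ifitm3*, an antiviral membrane protein gene, was at 1155 and 137 CPM, *Ifi27l2a* at 1168 and 236 CPM, *Bst2*, which encodes tetherin, at 990 and 184 CPM, and *Oasl2* at 208 and 22.1 CPM. These 4 were higher in all 4 numbers. *Ifit3* ran from -3 to 3.87, *Isg15* from -1.87 to 3.02 and *Usp18* from -0.13 to 2.41 on the log2 scale over the numbers, so their direction did not hold in every one. *Isg15* was highest in endothelial-like cells at 284 CPM, and *Usp18* and *Ifit1* were highest there too, at 93.0 and 121 CPM.

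**Figure D5:**
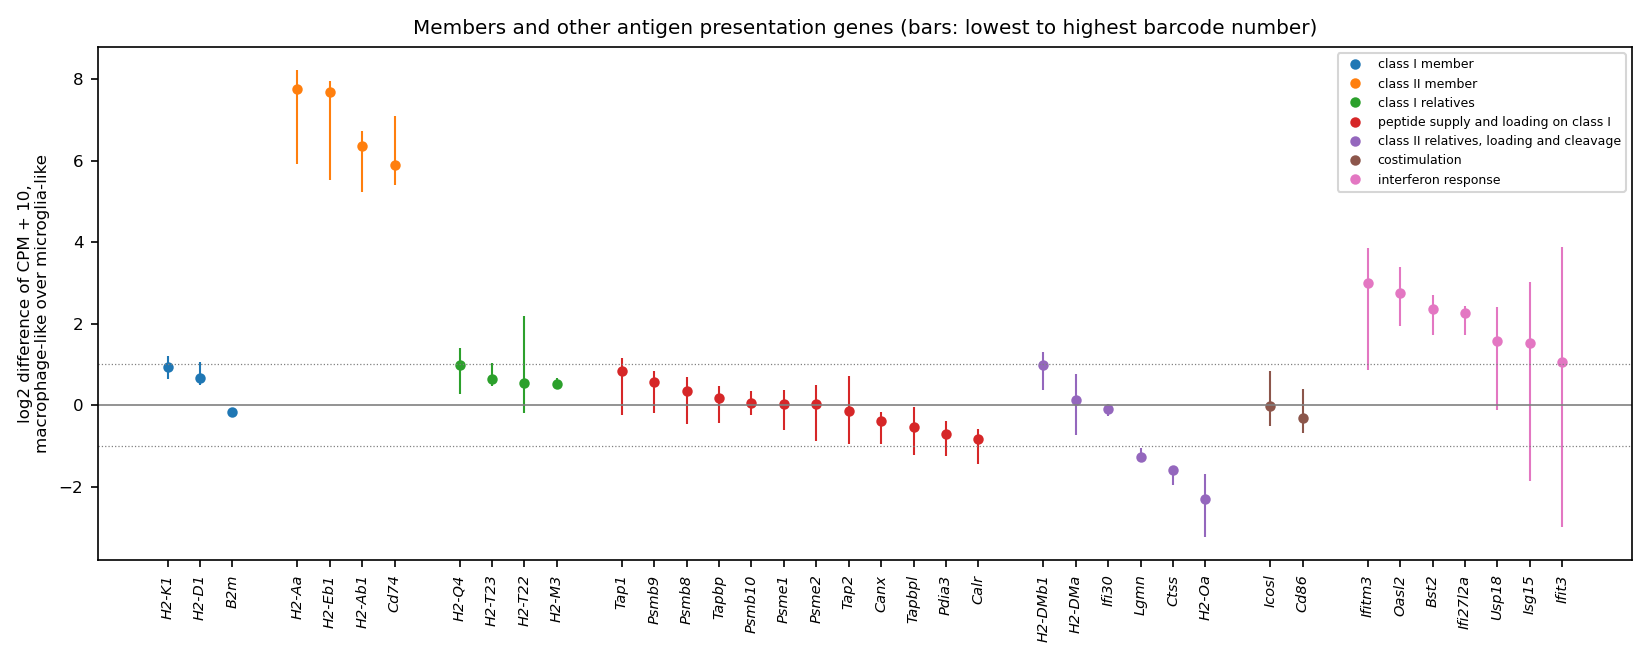
Log2 difference of CPM + 10, macrophage-like over microglia-like cells, for the members and the listed genes with at least 50 UMIs in the 2 types, leaving out the list of regulators, with the dot at the value over all cells and the bar from the lowest to the highest barcode number. The class II members lie between 5.89 and 7.75, the interferon response genes above 1, *H2-Oa*, *Ctss* and *Lgmn* below -1, and the other genes shown between the dotted lines at -1 and 1.

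Over all genes, 6 of the 7 members were highest in macrophage-like cells and at least 4 times the median type, and *B2m* was so in microglia-like cells, where 1.72% and 2.42% of 13856 genes were. Of 7762 genes with at least 500 UMIs, *Psmb8* had the pattern over the 13 types most like that of the class I sum (Pearson r of log2(CPM + 10) 0.96), followed by *Il10rb* (0.95), *Arhgef1*, *Rap1b*, *Slco2b1*, *Cflar*, *Cmtm6*, *Ifngr1*, *Ier5* and *H2-T23* (0.92). *Ms4a7* was most like the class II sum (0.97), followed by *Ms4a6c*, *Lyz2*, *Pf4*, *H2-DMb1*, *Gmfg*, *Ccl12*, *Lst1*, *Adgre1* and *Fyb* (0.89). *Ms4a7* and *Pf4* are in the list that named the macrophage-like cells. The points share the same cells and depths, so these correlations are descriptions.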

How the data were processed

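The authors mapped the reads to mm10 (GRCm38) and made UMI counts per gene and cell with Cell Ranger 2.0, per the submitters' processing notes, and the deposited values are those counts without normalization. The annotation release and the rule for calling cells are not given in the sources used here. Identifiers of 27645 of 27998 genes were matched to GENCODE vM21, and 0 per-sample columns were left unused. Labels list 32 sample records, which are parts of 4 libraries, and no cell could be assigned to one, so nothing was tested.

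Each cell's counts were brought to the median depth and put on a log scale, and Leiden clusters at resolution 1 were made with scanpy 1.11.5 from 30 principal components of 2000 variable genes and 15 neighbours. Of the variable genes, 32 were members or pathway genes and were left out. A cluster took a marker list's name at a score of at least 0.3 and 1.5 times the next list, with 3 markers at least 4 times above the median cluster. Scrublet called 50 doublets (0.836%, 0 of them macrophage-like and 5 microglia-like), which were kept, and 3 cells rich in haemoglobin were set apart. Sub-clusters used 10 components. Genes under 50 UMIs in the 2 types were not compared, and the pseudocount was 10 CPM.

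The members and lists were chosen with earlier results of these data known. Named genes are the members, pathway genes past 4-fold between the 2 types or with a highest type past 4 times the median type, and the 10 genes most like each sum. *Calr*, *Ifit3*, *Ciita*, *Ccl4* and the markers and leading genes of sub-clusters were named outside it, after their values were seen. In Poisson counts simulated for macrophage-like over microglia-like sums, 95.7% of 4495 intervals held the set value. The simulation held counting error alone, so it checks the calculation and cannot show how far cells or mice differ. The count over the list of regulators is not reported here.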

Additional observations from a re-analysis of the deposited data

Results flagged for a closer look

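The *H2-D1* level of macrophage-like cells was 2689, 2650, 2810 and 1745 CPM in barcode numbers 1 to 4, and the value of number 4 (1745 CPM) lay far from the other 3, with a gap of 0.849 of the whole range. It was the only one of 23 values compared over the 4 numbers to pass this limit, and chance alone flags about 1 in 20. Number 4 held 17 macrophage-like cells.

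The class II sum in the unnamed cluster of 28 cells, which enters neither side of the comparison, was 44826.5 CPM, and it was 35565, 46950, 62376 and 40677 CPM in barcode numbers 1 to 4. The class II sum in the unnamed cluster of 41 cells was 416 CPM, from 79 UMIs, of which 1 cell held 64, and 51 of its 57 *Cd74* UMIs were in 1 cell.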

How the results depend on the processing

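No paired analysis was possible because no cell could be assigned to the replicate numbers of the labels. K-means with 9 clusters gave no value, since it joined both types in 1 unnamed cluster. Of the class II log2 difference between macrophage-like and microglia-like cells (6.42), no alternative changed the sign. It was 6.80 with member and pathway genes kept among the variable genes, 6.65 at resolution 0.5, which merged the unnamed 28 cells into the macrophage-like ones, and 5.67 without cells carrying another leukocyte marker. Of the alternatives chosen after seeing the data, it was 6.65 with the 28 cells counted as macrophage-like and 4.53 without the sub-clusters lacking *Cd163* and *Lyve1*. The class I log2 difference (0.19) was 0.12 with the genes kept, 0.41 in thinned cells, 0.37 without cells carrying another leukocyte marker and 0.34 as a mean of shares per cell. The macrophage-like share of class II UMIs (61.9%) was 90.9%, 91.6%, 65.8%, 35.2%, 91.6% and 23.2% with the genes kept, at resolution 0.5, thinned, without other leukocyte markers, with the 28 cells and without those sub-clusters. The microglia-like share of class I UMIs (36.4%) was 28.2% without other leukocyte markers and 37.8% without those sub-clusters. Cells with another leukocyte marker were left out only among macrophage-like and microglia-like cells. The unnamed 28 cells therefore stayed in the totals of both shares. The sub-clusters lacking *Cd163* and *Lyve1*, where left out, were taken from those totals too. Macrophage-like cells with *Cd74* (58.7%) came to 47.9% when thinned and 46.2% without those sub-clusters, and microglia-like cells with *Cd74* (28%) to 12.1% both when thinned and at 2 UMIs or more. Genes past 1 log2 unit (529) numbered 306 when thinned, 247 at a pseudocount of 50 CPM and 982 without a filter. *B2m*, at -0.18, was reversed at 0.030 when thinned and at 0.0013 without other leukocyte markers. Apart from the fewer cells or genes that some of these settings use, the cause was not tested. Each barcode number left out in turn gave 6.27 to 6.60 for class II, 0.16 to 0.25 for class I, 57.0% to 67.2% and 33.1% to 39.1% for the 2 shares of UMIs, 57.5% to 60.4% and 25.8% to 28.9% for the 2 shares of cells, and 455 to 510 genes. Of the 7 main results, 45 of 69 other values stayed within the interval or 1.5 times of the main one.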
